A study of Mus musculus with 8 samples.

Results

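The genes described here were 39 type I interferon stimulated genes of the mouse, given by name as well-known members of the interferon response. The count table held 37 of them among 13786 genes, and Mx1 and Mx2 were not analysed here. They were read in bulk RNA-seq of splenocytes selected for CD11c, a surface integrin chain that marks dendritic cells and some macrophages, from 8 female mice aged 7 weeks. The sample labels name no treatment. The control group was 4 C57BL/6 mice, the wild-type parent strain. The other group was 4 B6.SLE123 mice, a triple congenic strain that carries the lupus susceptibility intervals Sle1, Sle2 and Sle3 of the NZM2410 strain on a C57BL/6 background. The comparison asked how transcripts of the CD11c fraction differed between the lupus-prone strain and its parent strain at this age. Each sample was 1 mouse, and since a whole fraction was sequenced, fewer cells of a type and less RNA per cell cannot be told apart in any value below.

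Type I interferons are secreted when a cell senses foreign or misplaced nucleic acid. They bind the receptor chains encoded by Ifnar1 and Ifnar2, which activate the kinases Jak1 and Tyk2, and these act through transcription factors that include Stat2 and Irf9. The activated complex binds the interferon-stimulated response element in the promoters of many genes, whose products block viral entry, translation and replication. Raised blood levels of such transcripts are a known feature of human lupus, and dendritic cells both produce interferon and respond to it.

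The core of the response element was searched as GAAA, any 2 bases and GAAA again, on both strands, in the 250 bases before the annotated start of each gene. RefSeq promoter sequences on GRCm38.p6 were matched for 29 of the 37 members and for 10908 genes of the table. The core was present in 12 of the 29 member promoters, which is 41.4% with a Wilson 95% interval of 25.5% to 59.3%, and in 373 of all 10908, which is 3.42%. Among other genes known to respond to type I interferon it was in 13 of 38 promoters, or 34.2%. That share lies inside the interval of the members. The 7 stretches below are shown because the members with the clearest contrasts sit in families whose promoters can be compared by eye. Each is printed 5′ to 3′ in the direction of transcription and ends at the base before the start, with capitals marking matches to the core.

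Ifit1, chr19:34640759-34640888, plus strand: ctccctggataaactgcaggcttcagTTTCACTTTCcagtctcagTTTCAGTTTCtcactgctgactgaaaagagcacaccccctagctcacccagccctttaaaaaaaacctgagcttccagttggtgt
Ifit2, chr19:34550564-34550693, plus strand: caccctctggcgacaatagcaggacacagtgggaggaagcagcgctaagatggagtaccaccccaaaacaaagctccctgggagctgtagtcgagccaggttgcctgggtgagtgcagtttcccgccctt
Ifit3, chr19:34583349-34583528, plus strand: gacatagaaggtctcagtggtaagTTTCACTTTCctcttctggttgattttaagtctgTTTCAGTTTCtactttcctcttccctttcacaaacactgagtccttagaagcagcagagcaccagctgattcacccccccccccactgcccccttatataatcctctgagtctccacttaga
Ifit3b, chr19:34607745-34607956, plus strand: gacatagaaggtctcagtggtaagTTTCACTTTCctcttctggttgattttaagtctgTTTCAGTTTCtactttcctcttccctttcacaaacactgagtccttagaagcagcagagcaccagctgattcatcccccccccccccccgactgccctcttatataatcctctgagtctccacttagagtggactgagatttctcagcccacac
Oas1a, chr5:120907526-120907585, minus strand: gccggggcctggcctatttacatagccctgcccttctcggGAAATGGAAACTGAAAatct
Oas1g, chr5:120887614-120887673, minus strand: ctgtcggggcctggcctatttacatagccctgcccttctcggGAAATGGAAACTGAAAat
Isg15, chr4:156200819-156200928, minus strand: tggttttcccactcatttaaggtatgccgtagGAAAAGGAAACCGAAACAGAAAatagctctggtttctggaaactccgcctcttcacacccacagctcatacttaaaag

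Ifit1, Ifit3 and Ifit3b each held 2 separate matches on the strand opposite to transcription. The promoters of Ifit3 and Ifit3b were 86.2% identical over 218 aligned bases without gaps. Oas1a and Oas1g each held 2 overlapping matches within the last bases before the start, with 63.7% identity over 248 aligned bases. Isg15 held 3 overlapping matches, and neither of the 2 annotated Ifit2 promoters held one in this window, which says only that these letters were not found there. The other members with a match were Oas3, Trim30a, Rsad2, Stat2, Cxcl10 and Phf11b.

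**Figure D1:**
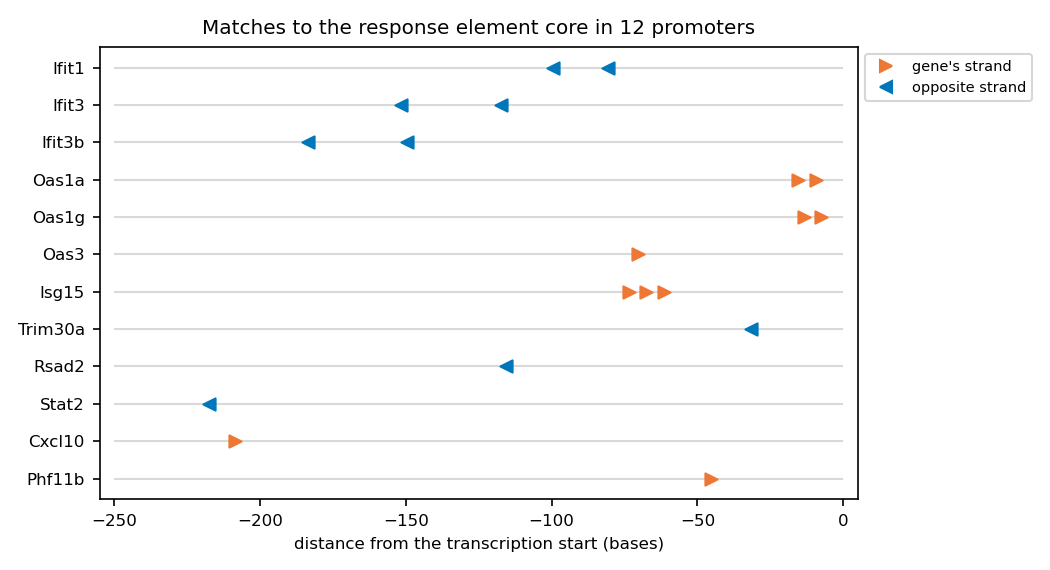
Positions of matches to the core of the response element in the 250 bases before the start of 12 members. The x axis gives the distance from the transcription start in bases, each row is a gene, and the triangle's direction gives the strand. Isg15 has 3 matches, Ifit1, Ifit3, Ifit3b, Oas1a and Oas1g have 2 each, and the others have 1.

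In the splenic CD11c fraction of B6.SLE123 mice, the interferon stimulated genes did not move as one. Of the 37 members, 14 were lower in B6.SLE123, 3 were higher and 20 did not pass a threshold of 0.05 on p from the quasi-likelihood test of edgeR, adjusted over all 13786 genes by the Benjamini-Hochberg method. The share lower was 37.8%, against 26.6% of all genes, and the share higher was 8.11%, against 26.7% of all genes. Counts within a role, given below, stand against these same shares of all genes. No member passed the test with a change of more than 2-fold, where 11.1% of all genes did, and the count was 0 with DESeq2 and limma-voom as well. The widest fitted change of any member was that of Oas1g, at -0.93. When 1 mouse was left out, up to 3 members passed with more than 2-fold, namely Ifit3, Ifit3b and Oas1g, each lower. The median log2 fold change (B6.SLE123 over C57BL/6) was -0.09 over the members and -0.0019 over all genes. Per-mouse values of the 2 strains did not overlap for 15 members that were lower, or 40.5%, and for 2 that were higher, or 5.41%. Among all genes the corresponding shares were 24.5% and 24.4%. When B6.SLE123 mouse 1 was left out, 5 members were higher and 13 lower, and the median turned to 0.03. Over the 8 mice left out in turn, the median ranged from -0.21 to 0.03.

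**Figure D2:**
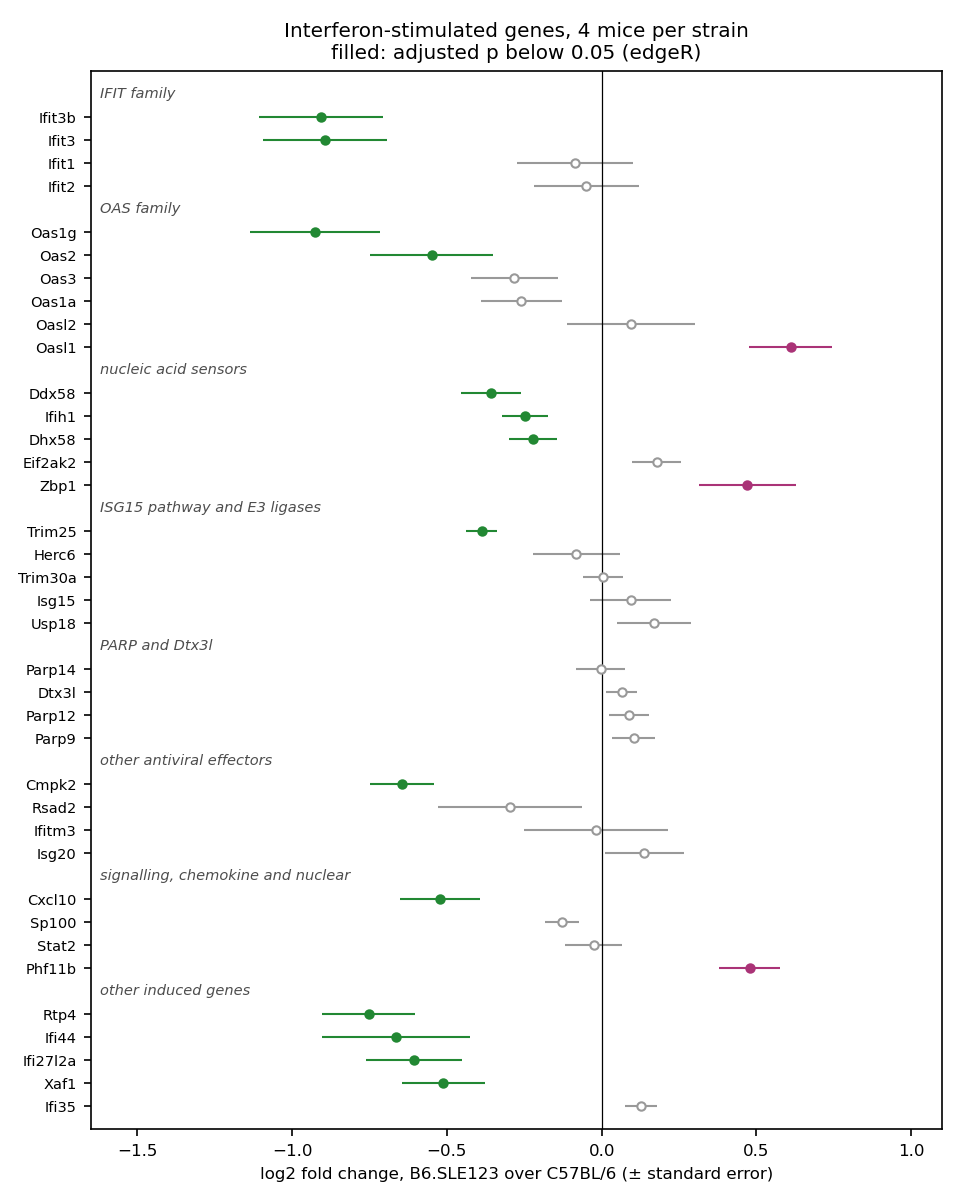
The log2 fold change of each of the 37 members, B6.SLE123 over C57BL/6, with bars of 1 standard error to each side and grouped by role. Points to the left of 0 are lower in B6.SLE123. The lowest values are those of Oas1g at -0.93, Ifit3b at -0.91 and Ifit3 at -0.89, and the highest is Oasl1 at 0.61.

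The IFIT family encodes RNA-binding proteins with tetratricopeptide repeats that hold viral RNA away from translation. Its 4 members lie within one cluster on chromosome 19, and they split into pairs. Ifit3 (chr19:34583531-34588731) and Ifit3b (chr19:34607970-34613401) fell, and Ifit1 (chr19:34640871-34650009) and Ifit2 (chr19:34550694-34576419) did not pass the test. Ifit3 stood at 44.6, 69.1, 56.1 and 62.9 CPM (counts scaled to a common library size) in the 4 C57BL/6 mice and at 19.8, 38.6, 27.4 and 39.6 CPM in the 4 B6.SLE123 mice. The highest B6.SLE123 mouse was below the lowest C57BL/6 mouse, and the log2 fold change was -0.89 (standard error, SE, 0.20, adjusted p = 0.00314). Ifit3b, the neighbouring copy, stood at 11.2, 18.9, 15.4 and 16.8 CPM in C57BL/6 and at 5.35, 10.1, 7.72 and 10.1 CPM in B6.SLE123. It fell by 0.91 on the log2 scale (SE 0.20, adjusted p = 0.003), again with no overlap. Of the 50-base stretches in Ifit3 transcripts, 51.2% also occur in Ifit3b, so the split of reads between these copies is uncertain.

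Ifit1 and Ifit2 gave another picture. Ifit1 stood at 13.8, 22.0, 18.8 and 17.6 CPM in C57BL/6 and at 12.2, 20.6, 13.8 and 21.5 CPM in B6.SLE123, and the strains overlapped. Its log2 fold change was -0.09 with a 95% interval of -0.50 to 0.33 (adjusted p = 0.721). Ifit2 stood at 34.9, 48.9, 39.2 and 44.0 CPM in C57BL/6 and at 28.9, 52.2, 34.2 and 46.1 CPM in B6.SLE123, also overlapping, with a log2 fold change of -0.05 and an interval of -0.42 to 0.32 (adjusted p = 0.826). Ifit1 and Ifit3 hold the same pair of core matches in their promoters, printed above, and only the latter passed the test.

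The ratio of 2 genes within a mouse does not depend on library scaling, so all 6 pairs of IFIT genes and all 15 pairs of OAS genes were compared, a choice made after their values had been seen. The log2 ratio of Ifit1 to Ifit3 was -1.69 ± 0.11 (SD, n = 4) in C57BL/6 and -0.87 ± 0.13 in B6.SLE123. It was higher by 0.82 in B6.SLE123 without overlap (exact permutation test, two-sided p = 0.0286, the smallest that 4 against 4 mice allow, and 0.0462 after adjustment over the 21 pairs). The ratio of Ifit2 to Ifit3 was higher by 0.85 and that of Ifit2 to Ifit3b by 0.84, with the same exact permutation p. The ratio of Ifit3 to Ifit3b was 1.91 ± 0.06 in C57BL/6 and 1.90 ± 0.06 in B6.SLE123, overlapping (exact permutation p = 0.886). The split of reads between these copies is uncertain, so this ratio and others with either gene carry that limit. The ratio of Ifit1 to Ifit2 also overlapped, with a difference of -0.03 (exact permutation p = 0.771).

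**Figure D3:**
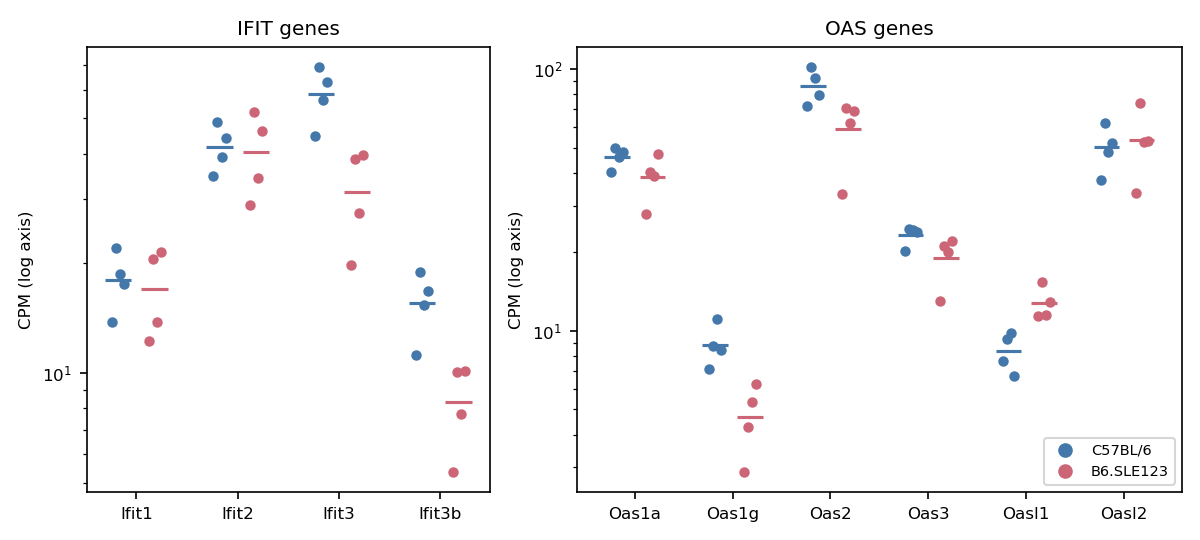
CPM of the 4 IFIT and 6 OAS genes in each mouse, on a logarithmic axis. Each point is 1 mouse and each bar the mean of 4 mice of a strain. Ifit3, Ifit3b, Oas1g and Oas2 show no overlap with B6.SLE123 below, Oasl1 shows none with B6.SLE123 above, and the other 5 genes overlap.

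The OAS family makes oligoadenylate messengers that switch on the ribonuclease RNase L, apart from Oasl1, which has no such activity and restrains translation of Irf7 in the mouse. Of its 6 members, Oas1g and Oas2 fell, Oasl1 rose, and Oas1a, Oas3 and Oasl2 did not pass the test. Oas1g (chr5:120876142-120887613), next to Oas1a (chr5:120896256-120907521), stood at 7.11, 8.75, 11.04 and 8.44 CPM in C57BL/6 and at 2.88, 4.27, 5.36 and 6.26 CPM in B6.SLE123. The strains did not overlap, and the log2 fold change was -0.93 (SE 0.21, adjusted p = 0.00341). Oas1g shares 45.7% of its 50-base stretches with other genes, mainly Oas1a, so part of its reads may have been assigned elsewhere.

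Oasl1 (chr5:114923240-114937915) had the largest rise of the 37 members. It stood at 7.68, 9.25, 9.79 and 6.72 CPM in C57BL/6 and at 11.4, 15.3, 11.4 and 12.9 CPM in B6.SLE123. Every B6.SLE123 mouse was above every C57BL/6 mouse, with a log2 fold change of 0.61 (SE 0.13, adjusted p = 0.00288). Oas2 stood at 71.9, 102, 92.1 and 79.6 CPM in C57BL/6 and at 33.2, 71.1, 62.2 and 69.3 CPM in B6.SLE123. The strains were apart by less than 1 CPM at their nearest mice, and B6.SLE123 mouse 1 lay far below the others. The log2 fold change was -0.55 (SE 0.20, adjusted p = 0.038), and this call was lost with DESeq2 and when C57BL/6 mouse 2, 3 or 4 or B6.SLE123 mouse 3 was left out (adjusted p up to 0.102).

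The remaining OAS members overlapped between strains. Oas1a stood at 40.5, 49.9, 46.3 and 48.2 CPM in C57BL/6 and at 28.0, 40.2, 39.1 and 47.4 CPM in B6.SLE123, with a log2 fold change of -0.26 (adjusted p = 0.115). Of the 50-base stretches in Oas1a transcripts, 57.6% also occur in Oas1g. The split of reads between these copies is uncertain too, and ratios with either gene carry that limit. Oas3 ranged from 20.1 to 24.4 CPM in C57BL/6 and from 12.97 to 22.0 CPM in B6.SLE123, with a log2 fold change of -0.28 (adjusted p = 0.115). Oasl2 ranged from 37.7 to 62.3 CPM in C57BL/6 and from 33.7 to 74.2 CPM in B6.SLE123, with a log2 fold change of 0.09 (adjusted p = 0.726). Within mice, 9 of the 15 ratios of OAS genes differed between strains without overlap, each at an exact permutation p of 0.0286 and an adjusted p of 0.0462. The widest was that of Oas1g to Oasl1, at 0.08 ± 0.21 (SD, n = 4) on the log2 scale in C57BL/6 and -1.48 ± 0.48 in B6.SLE123. The ratio of Oas1a to Oas3 differed by 0.03 and overlapped (exact permutation p = 0.571). Ratios within a family, IFIT or OAS, reuse the same genes, so they are not independent results. How many pairs of other genes separate the strains was not computed. Of all single genes, 24.4% were higher and 24.5% lower without overlap, so the counts of ratios are not read as a trait of these families.

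Among the 5 nucleic acid sensors, the 3 RNA helicases of the RIG-I family fell and Zbp1 rose. Ddx58, which encodes RIG-I itself, stood at 88.0, 97.2, 95.7 and 85.5 CPM in C57BL/6 and at 55.8, 74.1, 75.2 and 80.8 CPM in B6.SLE123. The strains did not overlap, with a log2 fold change of -0.36 (SE 0.10, adjusted p = 0.00985). Ifih1, whose product recognises long double-stranded RNA, stood at 101.0, 116, 105 and 102 CPM in C57BL/6 and at 78.4, 97.0, 84.7 and 97.0 CPM in B6.SLE123. It did not overlap either and had a log2 fold change of -0.25 (SE 0.07, adjusted p = 0.016). Dhx58, a regulator of the other 2 helicases, stood at 63.8, 75.1, 67.3 and 64.3 CPM in C57BL/6 and at 49.96, 63.4, 56.5 and 62.0 CPM in B6.SLE123. Its nearest mice were almost level, and its log2 fold change of -0.22 (SE 0.08, adjusted p = 0.0335) was lost without C57BL/6 mouse 2 or 3 or B6.SLE123 mouse 1 or 3 (adjusted p up to 0.0977).

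Zbp1, a sensor of left-handed nucleic acid that can start necroptosis, stood at 33.1, 40.9, 34.7 and 40.0 CPM in C57BL/6 and at 36.4, 68.0, 54.7 and 46.7 CPM in B6.SLE123. B6.SLE123 mouse 1 lay within the C57BL/6 range and the other 3 lay above it. The log2 fold change was 0.47 (SE 0.16, adjusted p = 0.0264), and the call was lost without C57BL/6 mouse 1 or 3 or B6.SLE123 mouse 2 or 3 (adjusted p up to 0.0721). Eif2ak2, the kinase that halts translation on binding double-stranded RNA, had a log2 fold change of 0.18 (adjusted p = 0.0817).

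The ISG15 system attaches a small ubiquitin-like protein to its targets. Isg15 itself, with 3 overlapping motif matches in its promoter, stood at 17.2, 23.6, 22.5 and 21.9 CPM in C57BL/6 and at 17.5, 27.2, 22.0 and 24.2 CPM in B6.SLE123. The strains overlapped, with a log2 fold change of 0.09 (adjusted p = 0.574). Usp18, which removes ISG15 and also blocks the interferon receptor, and Herc6, the main mouse ligase for ISG15, had log2 fold changes of 0.17 and -0.08 (adjusted p = 0.256 and 0.651). Trim30a, a restraint on inflammatory signalling, had a log2 fold change of 0.00 (adjusted p = 0.958).

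Trim25 (chr11:88999376-89020293), a ubiquitin ligase that acts with RIG-I, gave the smallest adjusted p of the members. It stood at 175, 178, 189 and 182 CPM in C57BL/6 and at 129.8, 133, 144 and 146 CPM in B6.SLE123. The lowest C57BL/6 mouse was well above the highest B6.SLE123 mouse, and the log2 fold change was -0.39 (SE 0.05, adjusted p = 6.34e-05). The poly-ADP-ribose polymerase family members Parp9, Parp12 and Parp14 and the Parp9 partner Dtx3l had log2 fold changes from -0.0034 to 0.10, and none of the 4 passed the test (adjusted p from 0.233 to 0.974).

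Among other antiviral effectors, Cmpk2 (chr12:26469204-26479837) and Rsad2 (chr12:26442746-26456452) lie side by side. Cmpk2, a mitochondrial nucleotide kinase, stood at 18.8, 23.8, 22.2 and 18.6 CPM in C57BL/6 and at 11.3, 14.2, 13.1 and 14.8 CPM in B6.SLE123. The strains did not overlap, with a log2 fold change of -0.64 (SE 0.10, adjusted p = 0.000366). Rsad2, which encodes viperin, an enzyme that makes a chain-terminating nucleotide from CTP, stood at 21.7, 33.5, 29.7 and 24.4 CPM in C57BL/6 and at 12.1, 27.2, 20.4 and 29.4 CPM in B6.SLE123. Those ranges overlapped, and the log2 fold change was -0.30 (adjusted p = 0.304). The difference between the changes of Cmpk2 and Rsad2 was not tested. Isg20, an exonuclease, had a log2 fold change of 0.14 (adjusted p = 0.388).

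Ifitm3, which blocks fusion of viruses with the cell, was the member with the highest level per kilobase of exon, at 274 CPM per kilobase in C57BL/6 and 270.4 in B6.SLE123. Its strain means were nearly level while the B6.SLE123 mice were far apart. It stood at 169.7, 195, 183 and 195 CPM in C57BL/6 and at 115, 122, 249 and 247 CPM in B6.SLE123. B6.SLE123 mice 1 and 2 were below every C57BL/6 mouse, and mice 3 and 4 were above every one, which left a log2 fold change of -0.02 (SE 0.23, adjusted p = 0.951).

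The neighbouring Ifitm2 and Ifitm1, which are no members of the list, divided the B6.SLE123 mice in the same way. Ifitm2 stood at 25.8, 26.6, 26.0 and 27.9 CPM in C57BL/6 and at 25.2, 16.3, 307 and 286 CPM in B6.SLE123. Mice 3 and 4 lay more than 10 times above all others. The fitted log2 fold change of 2.57 (SE 0.80, adjusted p = 0.0187) rested on these mice. The call was lost with limma-voom and with the replicate block. It was also lost without B6.SLE123 mouse 3 (quasi-likelihood test, adjusted p = 0.0516). Ifitm1 stood at 22.9, 25.5, 27.1 and 26.4 CPM in C57BL/6 and at 17.3, 14.2, 80.8 and 61.6 CPM in B6.SLE123 (log2 fold change 0.76, adjusted p = 0.188). The difference between mice 1 and 2 and mice 3 and 4 was seen in the data and was not tested.

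**Figure D4:**
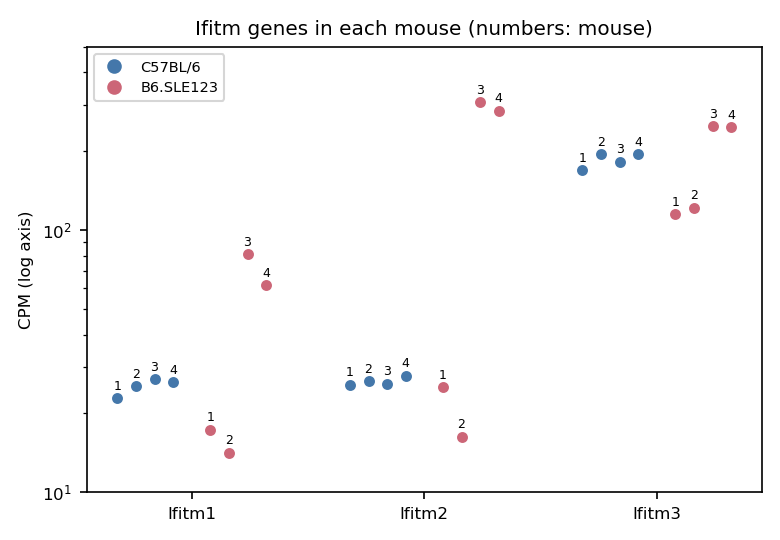
CPM of Ifitm1, Ifitm2 and Ifitm3 in each mouse, on a logarithmic axis, with 1 point per mouse and replicate numbers as given by the sample names. B6.SLE123 mice 3 and 4 lie above all C57BL/6 mice for each of the genes, and mice 1 and 2 lie below them for each.

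The members that signal or recruit cells were again mixed. Cxcl10, a chemokine that draws activated T cells, stood at 15.2, 13.6, 19.0 and 20.6 CPM in C57BL/6 and at 11.8, 13.2, 12.2 and 10.3 CPM in B6.SLE123. The strains did not overlap, with a log2 fold change of -0.52 (SE 0.13, adjusted p = 0.00569). Phf11b, named for its plant homeodomain finger, stood at 68.9, 81.8, 73.2 and 75.3 CPM in C57BL/6 and at 101.2, 119, 83.7 and 113 CPM in B6.SLE123. It rose by 0.48 on the log2 scale without overlap (SE 0.10, adjusted p = 0.00179), although 47% of its 50-base stretches are shared with its paralogs. Stat2 had a log2 fold change of -0.03 (adjusted p = 0.829). Sp100, a scaffold of nuclear bodies, ranged from 229 to 271 CPM in C57BL/6 and from 213 to 225 CPM in B6.SLE123, and its log2 fold change of -0.13 did not pass the test (adjusted p = 0.074) although the strains did not overlap.

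Of the 5 remaining interferon-induced members, 4 fell, where 26.6% of all genes were lower. Rtp4 (chr16:23520291-23614222), a chaperone of membrane receptors that also binds viral RNA, stood at 36.5, 51.1, 43.6 and 45.4 CPM in C57BL/6 and at 17.97, 29.5, 26.6 and 30.8 CPM in B6.SLE123. The groups were separate, with a log2 fold change of -0.75 (SE 0.15, adjusted p = 0.00156). Ifi27l2a, per kilobase the second most abundant member in C57BL/6 at 107 CPM per kilobase, stood at 42.9, 60.6, 54.8 and 39.2 CPM in C57BL/6 and at 24.4, 35.9, 31.7 and 37.8 CPM in B6.SLE123. It fell by 0.61 on the log2 scale (SE 0.15, adjusted p = 0.00685), with the nearest mice of the strains close together but not overlapping.

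Xaf1, a partner of the apoptosis inhibitor XIAP, stood at 38.6, 48.2, 41.2 and 39.0 CPM in C57BL/6 and at 20.7, 33.2, 33.4 and 29.6 CPM in B6.SLE123. It had no overlap and a log2 fold change of -0.51 (SE 0.13, adjusted p = 0.00818). Ifi44, the member with the lowest level per kilobase, stood at 5.45, 6.76, 7.90 and 5.30 CPM in C57BL/6 and at 2.09, 5.05, 4.88 and 3.94 CPM in B6.SLE123. Its log2 fold change of -0.67 (SE 0.24, adjusted p = 0.0363) was lost without C57BL/6 mouse 2 or 3 or B6.SLE123 mouse 4 (adjusted p up to 0.109). Ifi35 had a log2 fold change of 0.13 (adjusted p = 0.0525).

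The promoter motif did not divide the members by call. Of the 12 with a match, 1 was higher, 4 were lower and 7 did not pass the test, with a median log2 fold change of -0.27. Of the 17 promoters without a match, 1 belonged to a gene that was higher, 6 to genes that were lower and 10 to genes that did not pass, with a median of -0.05. These medians were not tested against each other. Of the members, 6 lie on chromosomes 1, 4 and 7, which carry the Sle intervals, and of these only Ddx58 passed the test, as lower. Of the other 31 members 16 passed, and of all genes 26.7% passed as higher and 26.6% as lower. These shares were not tested against each other. The boundaries of the intervals were not used here.

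Mice of one strain differed across the members as a set. B6.SLE123 mouse 1 was the lowest of its strain for 35 of the 37 members, where it was the lowest for 26.4% of all genes. C57BL/6 mouse 2 was the highest of its strain for 30 members, where it was the highest for 26.3% of all genes, and C57BL/6 mouse 1 was the lowest for 24. The mean log2 CPM of the members was 5.47, 5.78, 5.67 and 5.61 in the C57BL/6 mice and 5.08, 5.61, 5.45 and 5.57 in the B6.SLE123 mice. B6.SLE123 mouse 1 was thus alone at the bottom, while the other 3 lay among or just below the C57BL/6 mice. The mean was 5.63 ± 0.13 (SD, n = 4) in C57BL/6 and 5.43 ± 0.24 in B6.SLE123, a difference of -0.20. Without B6.SLE123 mouse 1 its strain stood at 5.55 ± 0.084 (SD, n = 3) and the difference was -0.08 with the library factors of all 8 mice.

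**Figure D5:**
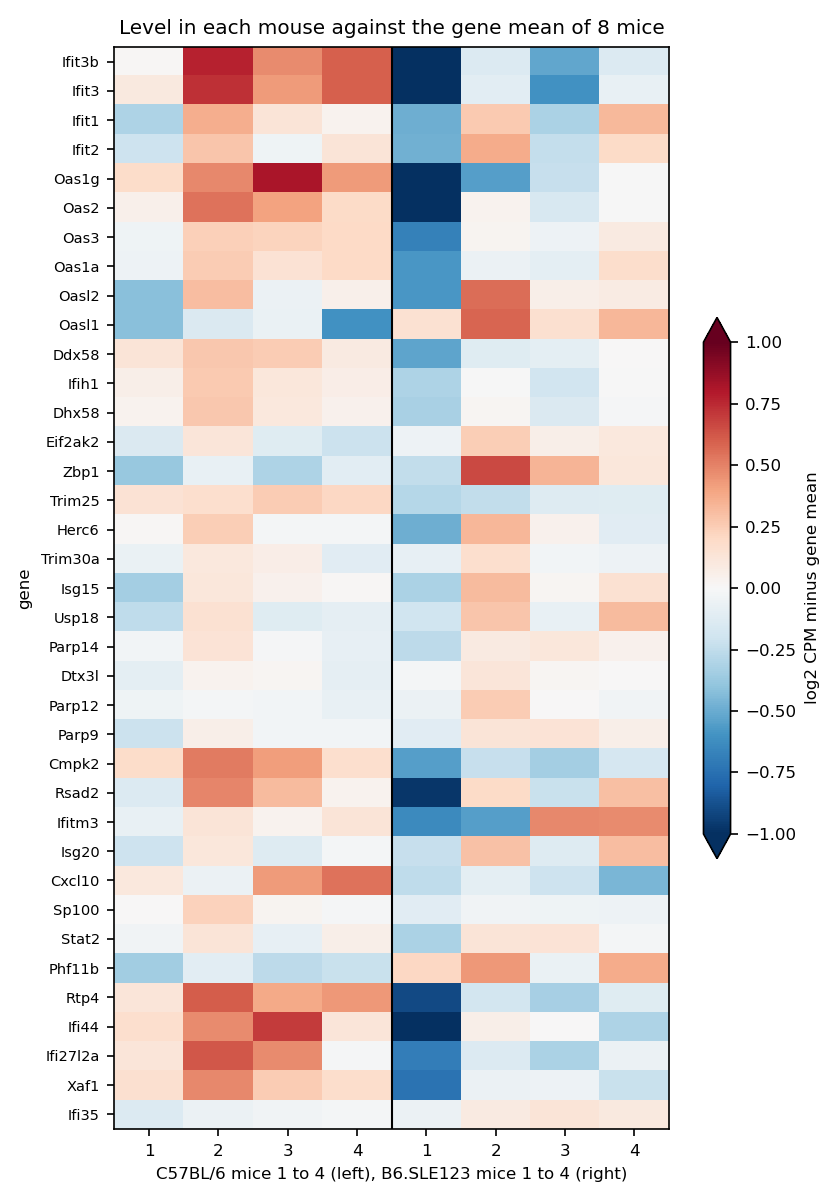
Deviation of each of the 37 members from its mean over all 8 mice, in log2 CPM, with mice in columns and genes in rows grouped by role. The column of B6.SLE123 mouse 1 is the lowest of its strain in 35 rows, and that of C57BL/6 mouse 2 is the highest of its strain in 30 rows.

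The spread of the members was described with and without the same mouse. The SD of log2 CPM was larger in B6.SLE123 for 30 of the 37 members, with a median of 0.27 against 0.15 in C57BL/6. Without B6.SLE123 mouse 1 it was larger for 15 members and the B6.SLE123 median was 0.15. That mouse was picked from these same values as the lowest of its strain, while C57BL/6 kept its own extreme mice. Leaving it out tends to narrow the spread by itself, so no conclusion is drawn from the narrower spread. Leaving this mouse out also brought Eif2ak2 (0.22, adjusted p = 0.0406) and Ifi35 (0.16, adjusted p = 0.012) past the threshold as higher in B6.SLE123, while Dhx58 lost its call. Ifit3, Ifit3b, Oas1g, Oasl1, Ifih1, Ddx58, Trim25, Cmpk2, Cxcl10, Phf11b, Rtp4, Ifi27l2a and Xaf1 passed under every alternative of normalisation, filter, test and mouse that was run. The depth of mouse 1, at 31688509 counts, lay inside the range of 25563070 to 37367094 counts for all mice.

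The genes that carry the interferon signal were given by lists of receptors, kinases, transcription factors, inhibitors and inducers. Of the 38 listed genes, 27 were in the table, and 10 were higher (37%, against 26.7% of all genes), 7 lower (25.9%, against 26.6%) and 10 did not pass, with a median log2 fold change of 0.05. None of the 9 listed interferon genes was analysed here. Ifnar2 stood at 146, 152, 151 and 153 CPM in C57BL/6 and at 107, 114, 113 and 121 CPM in B6.SLE123, a fall of all mice without overlap (log2 fold change -0.40, SE 0.045, adjusted p = 2.55e-05). Its partner Ifnar1 had a log2 fold change of -0.09 (adjusted p = 0.1).

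Irf7, the factor that amplifies interferon production and is itself induced by it, stood at 145, 178, 164 and 164 CPM in C57BL/6 and at 93.0, 153, 118 and 116 CPM in B6.SLE123. It fell by 0.44 on the log2 scale (SE 0.12, adjusted p = 0.0121), although the second B6.SLE123 mouse lay within the C57BL/6 range. B6.SLE123 mouse 1 was the lowest of its strain for Irf7 too. Jak1 had a log2 fold change of -0.02 (adjusted p = 0.768), Irf9 of 0.08 (adjusted p = 0.308) and Tyk2 of 0.15 (adjusted p = 0.0282), the last lost without C57BL/6 mouse 2, 3 or 4 or B6.SLE123 mouse 2. Socs1, an inhibitor of the kinases, stood at 10.3, 8.29, 8.69 and 10.5 CPM in C57BL/6 and at 14.6, 14.97, 14.5 and 13.1 CPM in B6.SLE123. It rose without overlap (log2 fold change 0.60, SE 0.091, adjusted p = 0.000248).

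Of 46 other genes known to respond to type I interferon, 42 were in the table, and 12 were higher (28.6%), 9 lower (21.4%) and 21 did not pass, with a median log2 fold change of 0.03. These shares lie near the 26.7% and 26.6% of all genes. Besides Ifitm2, the largest rises were those of Tlr3, an endosomal sensor of double-stranded RNA that is also a marker of type 1 conventional dendritic cells (0.89, adjusted p = 0.000615), and Phf11a, a paralog of Phf11b (0.54, adjusted p = 0.0114). The largest falls were those of the galectin-binding Lgals3bp (-1.05, adjusted p = 1.07e-05), the galectin Lgals9 (-0.65, adjusted p = 0.000448) and Shisa5 (-0.52, adjusted p = 2.04e-05).

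Levels of several cell type markers in the fraction differed between the strains as well. The 6 shared dendritic cell markers were present in every mouse, with a summed level of 22330 to 26110 CPM in C57BL/6 and 27560 to 29000 CPM in B6.SLE123, and 6 of 6 were higher. All 10 red pulp macrophage markers were lower, with a summed level of 11660 to 14690 CPM in C57BL/6 and 1647 to 3278 CPM in B6.SLE123. Among 8 B cell markers 7 were lower, with sums of 506 to 603 CPM and 329 to 423 CPM. Among 8 markers of type 1 conventional dendritic cells 6 were higher and 1 lower, with sums of 2656 to 3036 CPM and 4251 to 5367 CPM. The 8 markers of plasmacytoid dendritic cells, the most productive interferon source of the spleen, summed to 321 to 341 CPM and 278 to 329.7 CPM, with 2 higher and 3 lower. Erythroid markers were lower for 8 of 8, with sums of 63.9 to 262 CPM and 5.21 to 34.6 CPM and 2 of them at 0 in some mice. Of the other marker lists, 4 of 8 monocyte and 3 of 7 type 2 conventional dendritic cell markers were lower. Among 7 neutrophil markers 2 were higher and 2 lower, among 7 T cell markers 1 was higher and 1 lower, and 1 of 8 NK cell markers was higher. Of all genes, 26.7% were higher and 26.6% lower. The plasmacytoid, neutrophil, T cell and NK cell counts are therefore not read as a difference between the strains. The part of these cell types in the changes of the interferon stimulated genes was not tested. In B6.SLE123 mouse 1 the markers of type 2 conventional dendritic cells summed to 1466 CPM, the lowest of its strain, against 1484, 1532 and 1801 CPM in the others, and none of the other marker lists was lowest in that mouse.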

How the data were processed

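RNA of CD11c-selected splenocytes from 8 mice was sequenced with a stranded library kit. The authors used cutadapt for trimming, STAR for alignment (build mm10) and featureCounts for gene-level counts. The versions, and the strand setting of the counting, are not given in the sources used here. The deposited table holds raw counts per gene and mouse, with totals of 25563070 to 37367094 per mouse, and lists genes whose larger strain median is at least 5. It also holds columns of the authors' own DESeq2 comparison (mean normalised count, fold changes, standard error, statistic, p and adjusted p), which were not used. A total of 21 gene symbols stood as calendar dates in the table and were changed back.

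Strains were taken from the sample names, because the number in the genotype label rises by 1 from mouse to mouse. Counts were tested as deposited in R 4.3.3 with edgeR 4.0.16 (TMM normalisation, glmQLFit and glmQLFTest, no filter on low counts), with Benjamini-Hochberg adjustment over 13786 genes and a threshold of 0.05. CPM used TMM library sizes, and the mean log2 CPM used a prior count of 2. The smallest count of any member in a mouse was 66 and the largest 10068. Mice of one strain differed by more than sampling noise, with a chi-square per degree of freedom of 4.87 to 18.3. The fit was tested on simulated data of 13786 genes, where it recovered 98% of 2-fold and 88% of 1.5-fold changes. It made 17 false calls among 203, a larger share than the threshold of 0.05 aims at. Few genes were changed in the simulation, none of them with a low count, while 7356 genes were called in the data. The simulation does not cover that setting. Alternatives were relative log expression and upper quartile factors, filterByExpr, DESeq2 1.42.0, limma-voom (limma 3.58.1), the replicate number as a block, each mouse left out, a prior count of 0.5, a looser motif and a longer promoter window. Exact permutation tests were run in R 4.3.3, and the Wilson interval used scipy 1.17.1.

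Members and lists were chosen with earlier results of these data known. Members in the table could all be named, with values in every mouse for those with an adjusted p below 0.05 and for those that went against their group. From the signalling lists the receptor chains, Jak1, Tyk2, Irf9, Irf7 and Socs1 were named (1 further gene of this rule is not reported here), and from the other response genes the 3 largest rises and 3 largest falls that passed. Exon lengths, coordinates and shared 50-base stretches came from GENCODE M21 on the same assembly, in which 13663 genes of the table had the same coordinates, and promoters came from RefSeq on GRCm38.p6. The annotated spans, introns included, of Oas2, Oasl1, Dhx58, Usp18, Eif2ak2, Parp9, Dtx3l, Cxcl10, Sp100, Rtp4, Trim30a, Herc6 and Ifi35 overlap a gene on the other strand. Whether exons overlap was not examined. Without the strand setting, reads from any shared exons cannot be told apart.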

Additional observations from a re-analysis of the deposited data

Results flagged for a closer look

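In 4 of 102 groups of 4 mice, 1 mouse lay apart from the others of its strain by Dixon's criterion, where chance gives about 5.1. Oas3 stood at 20.1 CPM in C57BL/6 mouse 1, against a median of 23.9 CPM in its strain. Herc6 stood at 58.2 CPM in C57BL/6 mouse 2, against a median of 48.8 CPM. Sp100 stood at 271 CPM (270.5) in the same mouse, against a median of 233 CPM. Tyk2 stood at 302 CPM in B6.SLE123 mouse 2, against a median of 278 CPM.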

How the results depend on the processing

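Of 140 values that answer a comparison, recomputed under the alternatives, 133 stayed within a set tolerance of the main value. Another 6 moved beyond it and 1 changed sign. The tolerance was wide, since 11 members called lower counted as the same as 14. The members called higher numbered 5 with the replicate block and 2 to 5 when 1 mouse was left out, and those called lower numbered 16 and 11 to 14. The members changed more than 2-fold numbered 0 to 3 when 1 mouse was left out. The median log2 fold change of the members ranged from -0.212 to 0.0299 and was 0.0299 without B6.SLE123 mouse 1. Also with 1 mouse left out, and library factors computed anew, the difference in mean log2 CPM ranged from -0.27 to -0.0864, the latter without B6.SLE123 mouse 1. The same fits called 6496 to 7013 of all genes, where the other alternatives called 7100 to 7443. With 1 mouse left out the fits gave 10 to 15 of the other response genes higher and 7 to 11 lower, and 9 to 11 signalling genes higher and 5 to 8 lower. The motif without its last base was in 48.3% of member promoters and 7.67% of all, and a window of 300 bases that includes the first transcribed bases gave 55.2% and 3.96%. Among the other response genes these settings gave 36.8% and 42.1%, in that order.

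Of the 17 called members, 13 kept their call under all 14 alternatives, and none changed direction. Of the 20 others, 5 passed under some alternative and 9 changed sign. When 1 mouse was left out, the log2 fold change ranged from -0.224 to 0.0385 for Ifit1, -0.212 to 0.0785 for Ifit2, -0.119 to 0.259 for Oasl2, -0.0165 to 0.197 for Isg15, -0.236 to 0.0422 for Herc6, -0.0617 to 0.0409 for Trim30a, -0.0422 to 0.0713 for Parp14, -0.207 to 0.147 for Ifitm3 and -0.084 to 0.061 for Stat2. It ranged from -0.0503 to 0.0005 for Jak1. Trim30a stood at -0.0066 with filterByExpr, and upper quartile factors gave 0.0143 for Parp14 and 0.0012 for Jak1. The cause was not tested. Nothing in the labels ties mice of equal number, and over all genes their deviations correlated at 0.02, 0.07, -0.03 and 0.12. Over the members, mouse 1 had the lowest and mouse 2 the highest mean log2 CPM in both strains. These means were 5.47 and 5.78 in C57BL/6 and 5.08 and 5.61 in B6.SLE123. The block brought the adjusted p of Ifit3 in the quasi-likelihood test from 0.00314 to 1.96e-05. Whether mice of equal number share a source of variation was not tested, so the block is given as an alternative.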
